A study of Cyanidioschyzon merolae strain 10D with 6 samples.

Results

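The plastid of the unicellular red alga Cyanidioschyzon merolae 10D carries genes for its own ribosome and for the enzyme that transcribes its genome. The 37 genes described here are those that the deposited annotation places on the plastid chromosome (Chloro) and whose names start with rpl, rps, rpo, inf, tuf or tsf. They are 13 genes of the small ribosomal subunit (rps), 17 of the large subunit (rpl), 4 of the RNA polymerase (rpo) and 3 translation factors (infC, tufA and tsf), of 207 plastid genes and 4984 genes in all. The choice used names and position only. Only 96 plastid genes carry a name, so a ribosomal gene listed by identifier alone would not be among the 37.

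Poly(A) RNA was sequenced from 3 libraries of the wild type 10D and 3 of Cme(z)-1, a mutant line of this strain in which Polycomb Repressive Complex 2 (PRC2) lacks function. Both were grown in liquid MA2, an acidic medium, under constant light. The comparison addressed how losing this nuclear chromatin complex affects transcript levels. The labels give a single mutant line and do not say whether replicates were separate cultures. The p-values therefore cover the spread between these libraries only, which may be a technical one, and any other trait of the line goes with the group. The libraries held 7860491 to 10754544 counts. CMQ156C had 1533 to 1776 counts in the wild-type libraries and 0 in each mutant library; that it encodes the PRC2 subunit E(z) is background knowledge and not in the files. Plastid genes took 0.789% to 1.13% of all counts. Because cells were measured in bulk, a change in plastid genomes per cell and a change in RNA per plastid genome cannot be told apart.

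Plastid ribosomes resemble those of bacteria, with a small subunit that reads the message and a large subunit that joins amino acids. The core of the plastid-encoded RNA polymerase is built of an alpha subunit (rpoA), a beta subunit (rpoB) and a beta-prime subunit (rpoC), and it is directed to promoters by sigma factors made in the nucleus. Of the translation factors, infC encodes initiation factor IF-3, tufA the elongation factor EF-Tu that brings aminoacyl-tRNA to the ribosome, and tsf the factor EF-Ts that recharges EF-Tu. In red algal plastids many of these genes still stand in the order of the bacterial ribosomal protein operons. Most plastid transcripts lack a long poly(A) tail, so poly(A) libraries sample them sparsely, and levels here need not follow the levels of the full transcripts.

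The 37 genes were weakly sampled. They held 1705, 1902 and 1747 counts in wild-type replicates 1, 2 and 3, and 3253, 2306 and 2134 in mutant replicates 1, 2 and 3. The median gene had 23 to 49 counts, depending on the library. Together they took 0.0186%, 0.0232% and 0.0222% of all counts in the wild type, or 0.0213% ± 0.0025 (SD, n = 3), and 0.0302%, 0.0278% and 0.0211% in the mutant, or 0.0264% ± 0.0047 (n = 3). The exact (Clopper-Pearson) 95% interval was 0.0177% to 0.0195% for the lowest of these shares and 0.0292% to 0.0313% for the highest, covering counting error only. Mutant replicates 1 and 2 lay above every wild-type library and mutant replicate 3 lay within the wild-type range. Plastid genes as a whole took 1.11%, 1.13% and 0.789% of counts in the same 3 mutant libraries, so mutant replicate 3 was also the lowest for the whole plastid. As a share of plastid counts, the 37 genes took 2.15%, 2.76% and 2.20% in the wild type against 2.71%, 2.47% and 2.68% in Cme(z)-1, and the groups overlapped on this scale too.

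None of the 37 genes, called members of the set below, passed the test for a difference between wild type and mutant. Differences were tested with edgeR's quasi-likelihood test over 7641 genes and transposable element (TE) copies, with Benjamini-Hochberg adjustment and a threshold of 0.05. In that test 4.95% of all rows were called, 3.40% as higher in the mutant and 1.54% as lower. The kinds of row differed: of 2776 TE copies 197 were called higher and 29 lower, and of 4677 nuclear genes 61 higher and 87 lower. Of the members 33 had enough counts to be tested, and 0 were called higher and 0 lower. The lowest adjusted p among them was 0.16, and 3 had an unadjusted p under 0.05, against 17.5% of all rows tested. DESeq2 and limma voom also called 0 of the 33, with 3 and 2 at an unadjusted p under 0.05.

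A missed threshold does not show equal levels, and the intervals give a range for the change of each gene taken alone. They are not adjusted for the number of rows tested. Those of rpoB, rpl11 and rpl12 left out 0, yet these genes were not called, because the adjusted threshold is stricter. The intervals are therefore not a limit of what the test could call. Approximate 95% intervals of the log2 fold change (mutant over wild type) had half-widths between 0.47 and 1.26. For 13 of the 33 tested members the interval lay wholly inside a 2-fold change in either direction. For 16 it reached a 2-fold rise and for 5 a 2-fold fall, with rpl14 reaching both. The point estimates ran from -0.45 to 1.09, and 23 were above 0 and 10 below, while 137 of all 186 tested plastid genes were above 0. The median of the 33 was 0.19, beside -0.01 over all rows tested, -0.04 over nuclear genes and 0.18 over all 186 tested plastid genes. With all 37 members in a fit without a low-count filter the median was 0.13. When libraries were scaled on plastid genes alone, the median of all rows moved from -0.01 to -0.15 and that of the tested members to 0.04, with 17 of 33 above 0.

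**Figure D1:**
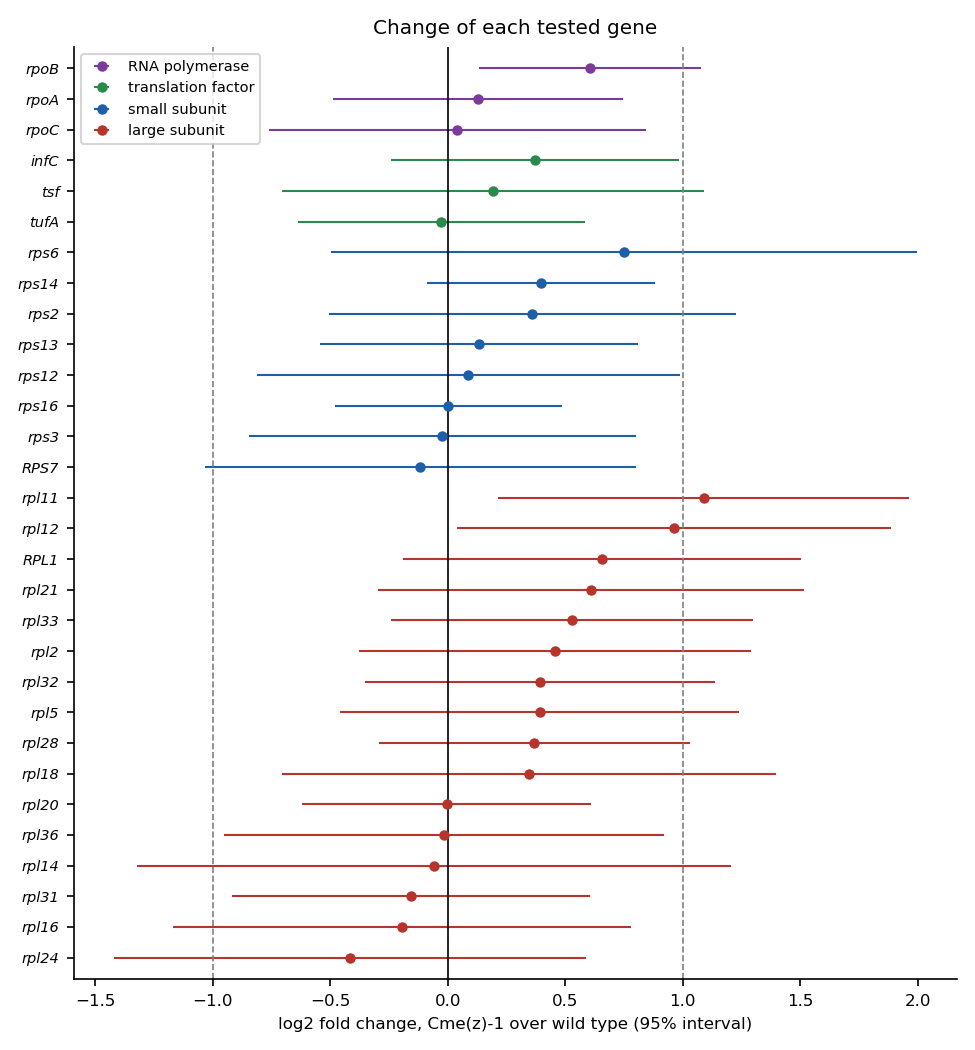
Log2 fold change of 30 of the 33 tested genes (x axis, Cme(z)-1 over wild type, with approximate 95% intervals from the edgeR fit), grouped by role on the y axis; the dashed lines mark a 2-fold change. Intervals of 27 of the genes drawn contain 0; those of rpoB, rpl11 and rpl12 do not, and none of the 33 passed after adjustment.

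The beta subunit gene of the RNA polymerase was the only member whose groups did not overlap. rpoB (CMV216C, Chloro 128375 to 131482, plus strand, build ASM9120v1, a gene of 3108 bp) had 11.9, 16.8 and 12.5 CPM (counts scaled to library size, with TMM factors) in wild-type replicates 1 to 3, and 20.9, 23.2 and 18.6 CPM in mutant replicates 1 to 3. Every mutant library lay above every wild-type library, and the log2 fold change was 0.61 (SE 0.21, adjusted p = 0.16 in edgeR). Among all rows tested 12.1% had every mutant library above every wild-type library and 11.1% had every one below, while among tested plastid genes 7.53% had every one above, so 1 of 33 members is no more than the background. The alternatives gave rpoB log2 fold changes of 0.46 to 0.77, with adjusted p never below 0.068.

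The other polymerase genes showed no such separation. rpoC (CMV217C, 131458 to 136485), the beta-prime gene and the longest of the 37 at 5028 bp, had 8.56, 15.3 and 5.94 CPM in the wild type against 11.8, 10.9 and 7.93 CPM in Cme(z)-1, with a log2 fold change of 0.04 (SE 0.35, adjusted p = 0.97). Its wild-type libraries spread more widely than its group means differed. rpoA (CMV185C, 115296 to 116243), the alpha gene, had 6.0, 9.37 and 10.2 CPM in the wild type against 9.47, 10.5 and 8.02 CPM in Cme(z)-1 (0.13, SE 0.27, adjusted p = 0.87). The groups overlapped, with wild-type replicate 1 the lowest of all 6. rpoZ (CMV061C, 41224 to 41370), whose bacterial namesake is the small omega subunit, had 6, 3 and 3 counts in wild-type libraries against 5, 6 and 3 in Cme(z)-1 and was too weak to be tested.

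Per kilobase of coding length the 3 core polymerase genes stood in the same order in every library. The mean level over the 6 libraries was 9.43 CPM per kb for rpoA, 5.58 for rpoB and 2.00 for rpoC. The ratio of rpoB to rpoC was 2.25, 1.78 and 3.41 in wild-type replicates 1 to 3 and 2.87, 3.45 and 3.81 in mutant replicates 1 to 3. rpoB and rpoC are direct neighbours on the same strand, and their annotated ends overlap. The ratio of rpoA to rpoB was 1.65, 1.83 and 2.68 in the wild type against 1.49, 1.49 and 1.41 in Cme(z)-1. These ratios are descriptions and were chosen after the values were seen. Both the ratios and the order are per kb. The genes are 948 (rpoA), 3108 (rpoB) and 5028 bp (rpoC) long, the shortest having the highest level per kb. Without division by length, mean CPM in the wild type was 13.7 for rpoB, 9.92 for rpoC and 8.54 for rpoA. In Cme(z)-1 these means were 20.9, 10.2 and 9.34. The part of gene length in the order was not tested.

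None of the 3 translation factor genes passed the test, and their groups overlapped. infC (CMV021C, 12703 to 13227, minus strand) had 8.0, 7.45 and 11.2 CPM in the wild type against 14.7, 9.56 and 10.3 CPM in Cme(z)-1 (log2 fold change, mutant over wild type, 0.37, SE 0.27, adjusted p = 0.55). The groups overlapped through wild-type replicate 3. tufA (CMV191C, 117957 to 119186) had 9.89, 17.1 and 11.8 CPM in the wild type against 14.6, 13.4 and 9.98 CPM in Cme(z)-1 (-0.03, SE 0.27, adjusted p = 0.98). Its highest and its lowest value were both wild-type libraries, and its interval of -0.64 to 0.58 lay inside a 2-fold change. tsf (CMV219C, 137147 to 137773) had 13, 23 and 15 counts in wild-type libraries against 32, 20 and 19 in Cme(z)-1, or 1.44, 2.95 and 1.90 against 2.97, 2.42 and 1.77 CPM (0.19, SE 0.39, adjusted p = 0.86).

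Small subunit genes took 31.9% ± 1.07 of the members' counts in the wild type against 31.2% ± 1.84 in Cme(z)-1 (SD, n = 3 each). Of 13 genes 11 were tested, and 8 had a log2 fold change above 0 and 3 below. The most abundant per kb was rps14 (CMV137C, 90818 to 91117), which encodes protein S14 and stands just after the photosystem I genes psaA and psaB. It had 23.0, 29.4 and 30.5 CPM in the wild type against 36.1, 46.0 and 27.0 CPM in Cme(z)-1 (0.40, SE 0.21, adjusted p = 0.39). Mutant replicate 3 lay within the wild-type range. rps16 (CMV084C, 55301 to 55525), of protein S16, had 12.1, 11.9 and 13.02 CPM in the wild type against 11.8, 14.8 and 10.6 CPM in Cme(z)-1, a log2 fold change of 0.0019 and an interval of -0.48 to 0.48.

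The small subunit genes with the largest estimate and with the lowest level rested on few reads. rps6 (CMV079C, 51208 to 51504), of protein S6, had 14, 26 and 6 counts in wild-type libraries against 48, 27 and 19 in Cme(z)-1 (log2 fold change of 0.75, SE 0.55, adjusted p = 0.55). The wild-type libraries alone differed from 0.758 to 3.34 CPM. rps2 (CMV218C, 136485 to 137147), of protein S2, was the weakest per kb, at 12, 16 and 9 counts against 19, 19 and 19 (0.36, SE 0.38, adjusted p = 0.70). rps19, of protein S19, was not tested. It had 5, 15 and 6 counts in wild-type libraries against 9, 9 and 10 in Cme(z)-1.

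The small subunit genes rps3, RPS7, rps12 and rps13 lie in the long run described below. Their log2 fold changes ran from -0.12 for RPS7 to 0.13 for rps13. RPS7, of the protein S7 that binds ribosomal RNA to start subunit assembly, had 4.67, 6.55 and 2.91 CPM in the wild type against 6.31, 2.90 and 3.73 CPM in Cme(z)-1. rps12, of a protein of the decoding site, had 3.00, 5.52 and 3.41 CPM in the wild type against 5.76, 2.42 and 4.38 CPM in Cme(z)-1. In both genes the libraries of each group spread more widely than the group means differed.

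Large subunit genes took 42.3% ± 3.17 of the members' counts in the wild type against 42.6% ± 3.40 in Cme(z)-1. Of 17 genes 16 were tested, and 10 had a log2 fold change above 0 and 6 below. Their single most abundant gene, rpl20 (CMV151C, 94723 to 95070), whose product L20 acts early in assembly of the large subunit in bacteria, held 21.1% ± 6.67 of all members' counts in the wild type against 17.1% ± 2.58 in Cme(z)-1. It had 41.6, 34.1 and 60.2 CPM in the wild type against 60.7, 43.3 and 31.3 CPM in Cme(z)-1, with a log2 fold change of -0.0047 (SE 0.27, adjusted p = 0.99). Both groups spread widely around nearly the same mean.

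The largest estimates among the tested genes were those of rpl11 and rpl12, whose products belong to a stalk of the large subunit. rpl11 (CMV102C, 64062 to 64475), RPL1 (CMV103C, 64475 to 65146) and rpl12 (CMV104C, 65146 to 65517) encode proteins L11, L1 and L12 and form a run of 3 genes, each overlapping the next by 1 base. rpl11 had 40, 46 and 21 counts in wild-type libraries against 133, 80 and 61 in Cme(z)-1, or 4.44, 5.90 and 2.65 against 12.3, 9.68 and 5.69 CPM (log2 fold change of 1.09, SE 0.39, adjusted p = 0.17). rpl12 had 2.78, 4.88 and 2.91 CPM in the wild type against 8.17, 8.83 and 3.64 CPM in Cme(z)-1 (0.96, SE 0.41, adjusted p = 0.26). RPL1 had 5.56, 9.88 and 4.68 CPM in the wild type against 13.8, 11.2 and 6.62 CPM in Cme(z)-1 (0.66, SE 0.37, adjusted p = 0.42). In all 3 genes wild-type replicate 2 was the highest wild-type library, mutant replicate 3 the lowest mutant library, and these 2 libraries made the groups overlap.

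Summed over the run, these 3 genes had 12.8, 20.7 and 10.2 CPM in the wild type against 34.4, 29.8 and 15.9 CPM in Cme(z)-1, a ratio of means of 1.83. That was the largest ratio of the 12 runs that hold members. The 3 genes share a strand and their ends, and are not 3 independent observations. For rpl11 no setting passed the threshold: the log2 fold change ran from 0.82 to 1.36 with a library left out, and the lowest adjusted p in any setting was 0.078.

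At the other end, rpl24 (CMV175C, 111035 to 111259), of protein L24, had 11, 14 and 7 counts in wild-type libraries against 13, 7 and 9 in Cme(z)-1 (log2 fold change of -0.42, SE 0.44, adjusted p = 0.70). rpl22 (CMV169C, 108978 to 109262), of protein L22, was the weakest large subunit gene per kb and was not tested, with 7, 8 and 3 counts in the wild type against 11, 10 and 8 in Cme(z)-1. Outside the long run, rpl21, rpl28, rpl32 and rpl33 had log2 fold changes of 0.61, 0.37, 0.39 and 0.53. rpl33, for example, had 5.0, 5.90 and 4.04 CPM in the wild type against 9.01, 8.35 and 4.29 CPM in Cme(z)-1, again with mutant replicate 3 inside the wild-type range. The remaining large subunit genes, rpl2, rpl5, rpl14, rpl16, rpl18, rpl31 and rpl36, lie in the long run and ran from -0.19 for rpl16 to 0.46 for rpl2.

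**Figure D2:**
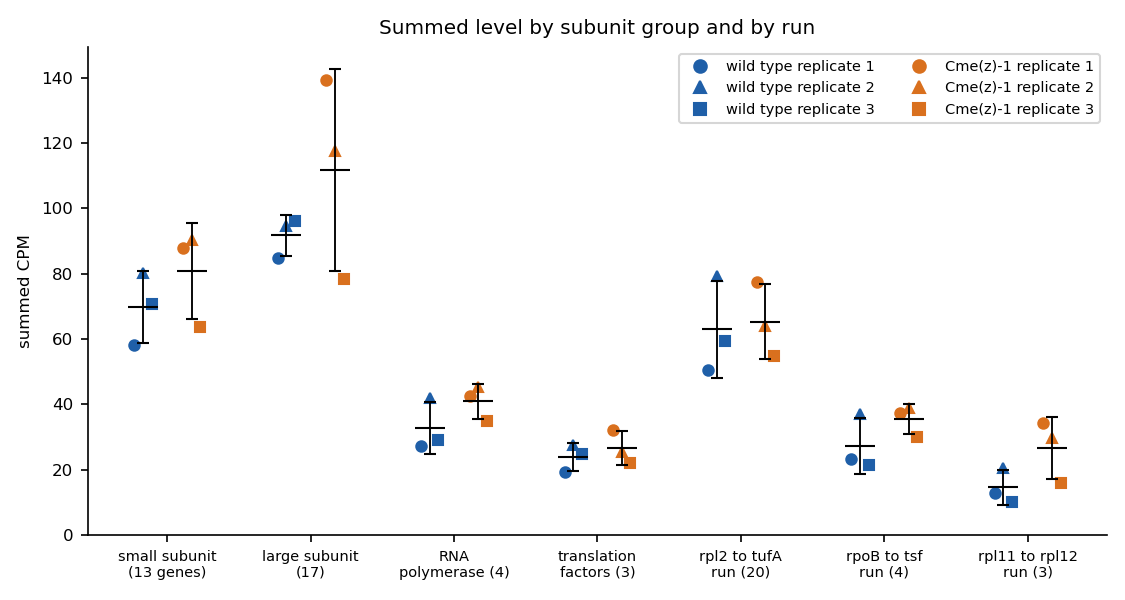
Summed CPM (y axis) in each of the 6 libraries for the 4 role groups and for the 3 runs that hold 3 or more of the 37 genes (x axis); bars show mean ± SD, n = 3. The groups overlap in every column, and the ratio of means is largest in the rpl11 to rpl12 run (10.2 to 20.7 against 15.9 to 34.4 CPM).

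By role, the summed levels were 69.8 ± 11.04 CPM in the wild type against 80.7 ± 14.7 in Cme(z)-1 for the small subunit, and 91.7 ± 6.17 and 112 ± 30.9 for the large subunit (SD, n = 3). The polymerase genes summed to 32.7 ± 8.0 and 41.0 ± 5.44 CPM, and the translation factors to 23.9 ± 4.16 and 26.5 ± 5.20. The ratio of means lay between 1.11 and 1.25 in all 4 groups. All 4 groups overlapped between wild type and mutant.

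The transcript levels of the 37 genes differed among themselves by far more than between wild type and mutant. Over the 6 libraries the mean level ran from 2.00 CPM per kb for rpoC to 130 for rpl20, a ratio of 64.9. After rpl20 came rps14 at 107, rps16 at 55.0, rpl33 at 32.8, rpl32 at 24.5, rpl28 at 22.0 and infC at 19.4 CPM per kb. None of these 7 lies in a run with 3 or more members. Of the 36 pairs of neighbours in this order, only 1 did not overlap in its 6 libraries, rps14 over rps16. In 12 genes the coding length is under 300 bp, and their values per kb rest on few bases. The median of the 37 genes was 9.43 CPM per kb, beside 16.0 for the other 170 plastid genes and 46.0 for the 34 genes whose names start with psa, psb, pet, atp, apc, cpc or cpe (photosystems, cytochromes, ATP synthase and antenna).

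**Figure D3:**
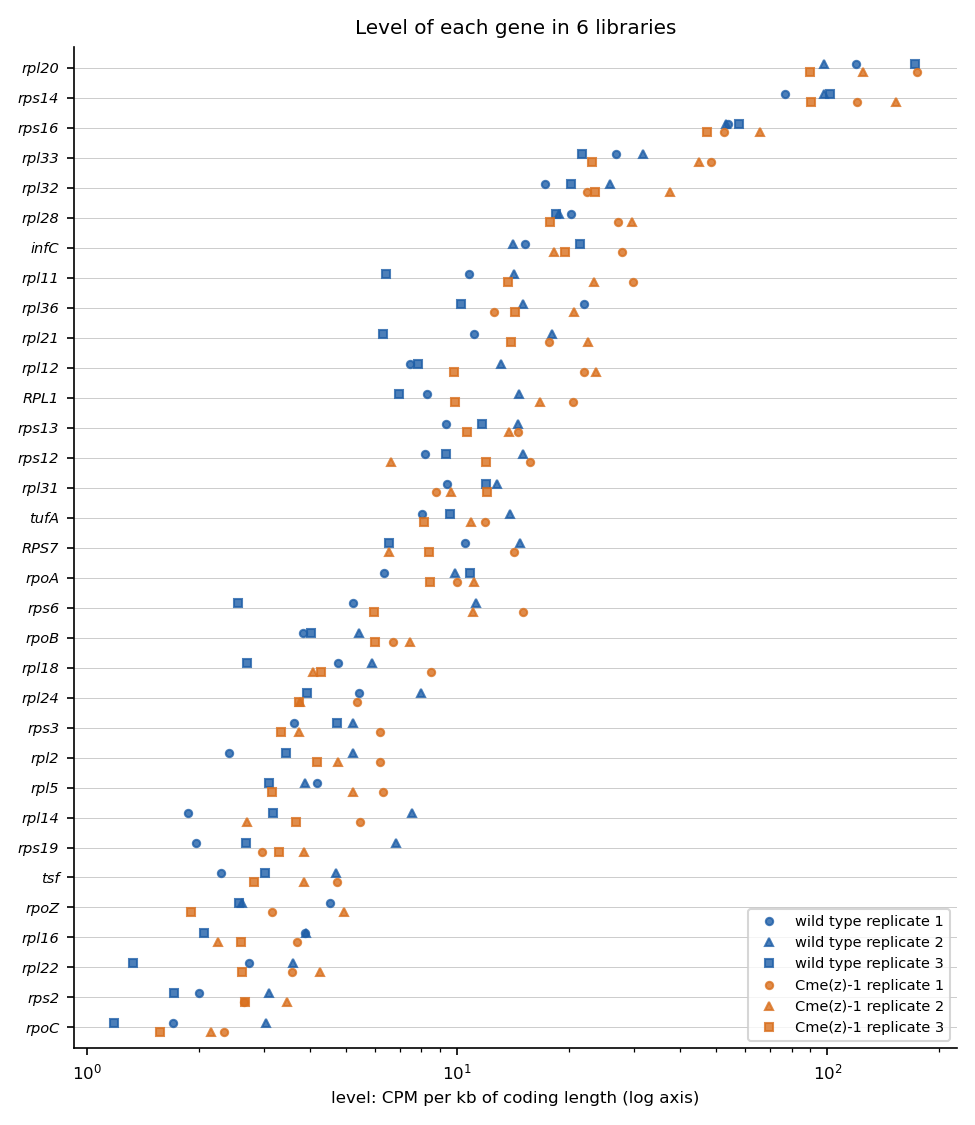
Level of 33 of the 37 genes (y axis, ordered by mean) in CPM per kb of coding length (x axis, log scale), with a point for each wild-type and Cme(z)-1 library. Genes spread from about 2.00 (rpoC) to 130 (rpl20) CPM per kb, while the libraries of the 2 groups overlap for every gene but rpoB.

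The genes stand in 12 runs, a run being a series of consecutive annotated genes on the same strand. If a gap over 200 bp also ended a run, there would be 13, since rps6 and rps16 would part. In all 34 genes lie on the plus strand and 3 (rpl28, infC and rpl33) on the minus strand. The packing is tight: of 20 pairs of members that directly follow each other, 10 share bases, and the widest gap is 36 bp. Of the 37 genes 28 share between 1 and 54 bases with a neighbour. Without strand information, reads in these overlaps and antisense reads cannot be told apart from the gene's own.

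The long run holds 20 of the 37 genes among 29 genes between positions 106582 and 119498. In their order along the strand they include rpl2, rps19, rpl22, rps3, rpl16, rpl14, rpl24, rpl5 and rpl18, then, after secY (a protein translocase channel, no member), rpl36, rps13, rpoA, rpl31, rps12, RPS7 and tufA. Another 8 genes of the run have no name in the annotation. Its members summed to 50.4, 79.3 and 59.3 CPM in the wild type against 77.3, 64.0 and 54.7 CPM in Cme(z)-1, a ratio of means of 1.04. Of the 17 tested members 8 had a log2 fold change above 0 and 9 below.

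Levels stepped up inside this run after secY. The 12 members before secY had mean levels of 3.02 to 5.24 CPM per kb, and the 8 after it had 9.43 to 15.8. Summed by side, the level before secY was 3.33, 5.33 and 3.68 CPM per kb in wild-type replicates 1 to 3 and 5.66, 4.27 and 3.47 in mutant replicates 1 to 3. After secY it was 8.52, 13.3 and 10.3 in the wild type against 12.4, 10.7 and 9.41 in Cme(z)-1. The ratio of the later to the earlier side was 2.56, 2.49 and 2.79 in the wild type against 2.19, 2.51 and 2.72 in Cme(z)-1, so every library showed the step and the groups overlapped. In 5 of 6 libraries each of the 8 later members lay above each of the 12 earlier ones, and in wild-type replicate 3 this held for 7 of the 8. secY itself, at 5.58 CPM per kb, and the last gene of the run, CMV192C, at 5.19, were near the earlier members. The place of the split was chosen after the levels were seen.

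**Figure D4:**
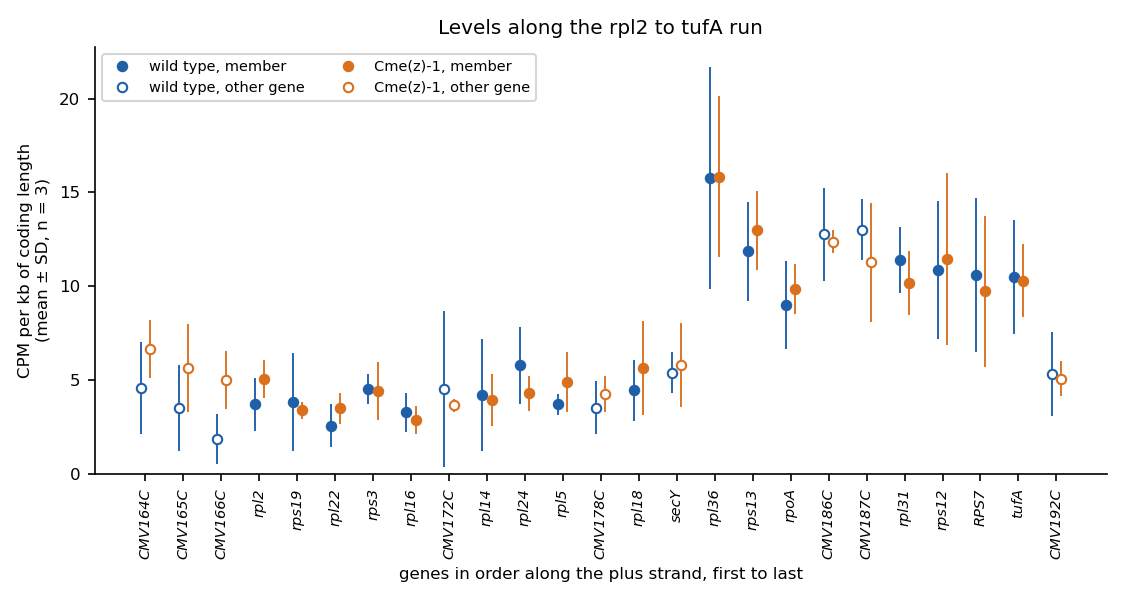
Mean ± SD (n = 3) of the level in CPM per kb of coding length (y axis) for 25 of the 29 genes of the long run in their order on the plus strand (x axis); filled points are members of the set of 37, open points other genes. Levels are at most 5.24 for members before secY and at least 9.43 from rpl36 to tufA when averaged over all 6 libraries.

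In the run of rpoB, rpoC, rps2 and tsf the level per kb was 5.58, 2.00, 2.60 and 3.58 CPM in the order of the genes. The ATP synthase genes that follow on the same strand had 10.3 (atpH), 7.59 (atpG), 15.1 (atpF), 17.5 (atpD) and 19.2 (atpA) CPM per kb. The 4 members summed to 23.2, 37.1 and 21.5 CPM in the wild type against 37.4, 38.8 and 30.1 CPM in Cme(z)-1, a ratio of means of 1.30 with overlapping groups. All 4 had a log2 fold change above 0, as had 137 of the 186 tested plastid genes. The high levels of rps14 and rpl20 likewise stood beside unequal neighbours: psaB before rps14 had 25.0 and hisH after it 76.6 CPM per kb, and CMV150C before rpl20 had 11.6.

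Differences between replicate libraries recurred in many of the 37 genes. Wild-type replicate 2 was the highest wild-type library for 27 of the 37 genes (73.0%), for 16 of the 20 in the long run and for all 4 in the rpoB run. Among the other 170 plastid genes it was the highest for 44.7%, and among tested nuclear genes for 34.2%. For rpl20, the member with the most counts, it was the lowest wild-type library. Mutant replicate 3 was the highest mutant library for 1 of the 37 genes and for 4 of the other 170 plastid genes. Without wild-type replicate 2 the median log2 fold change of the tested members was 0.41, and without wild-type replicate 1 it was 0.10. The part of these library differences in the small positive median was not tested.

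Many of the 37 genes lie under TE annotation, since the deposited TE file also covers the plastid. In all 27 of the 37 overlap at least 1 of 30 annotated copies and 20 are covered over 50% or more of their length. tufA, rps12, rpl36 and rpl14 are covered over 100%. The 30 copies held 18, 7 and 12 counts in wild-type replicates 1 to 3 and 21, 39 and 14 in mutant replicates 1 to 3, while the 27 genes held 1209, 1376 and 1232 against 2394, 1529 and 1515. No copy had more than 8 counts in a library, 10 had 0 in every library, and none was tested. Nearly all counts over these stretches were deposited under the genes.

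Beside the 37, other plastid genes were called rarely. Of 186 tested plastid genes 4 (2.15%) passed, 2 higher and 2 lower, and none was a member. The 8 genes of protein handling and regulation that were looked for by name (dnaK, groL, ftsH, secA, secY, rbcR, MNME and tilS) had 0 called in either direction, with 7 log2 fold changes above 0 and a median of 0.30. In the 32 tested photosynthesis genes 0 were called, with a median of 0.06. Of all 186 tested plastid genes 137 had a log2 fold change above 0.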

How the data were processed

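The authors deposited raw whole-number read counts per gene and per TE copy, in a table for each library. The submitters' processing notes list Trim Galore and STAR with no version; libraries were unstranded and poly(A)-enriched, per the labels' protocols. Which program counted the reads, and how it handled multiply mapped ones, is not given in the sources used here. Gene coordinates are those of build ASM9120v1, per the file headers of the gene annotation (the TE file has no header).

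Counts were fitted with edgeR 4.0.16 in R 4.3.3: filterByExpr (minimum count 10, minimum total 15), TMM scaling, glmQLFit and glmQLFTest, with Benjamini-Hochberg adjustment over 7641 rows. Standard errors came from the F statistic, and 95% intervals from the standard error and a t quantile; both are approximate. CPM used TMM-scaled library sizes. Replicate pairs within a group differed by more than sampling allows (chi-square of 16.2 to 33.3 per degree of freedom). The edgeR step was tested on simulated data. DESeq2 1.42.0, limma 3.58.1 (voom), other scalings and filters, genes alone, a replicate block and left-out libraries were alternatives.

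The 37 genes and the lists were chosen with earlier results of these data known. Given library by library were the polymerase and translation factor genes and, per ribosomal subunit, the genes of highest and lowest level per kb and of largest change each way; others given so were chosen after their values were seen. The planned list of nuclear genes by product was not used here, since no product names were at hand. For the shares of counts an exact permutation test over libraries was planned, which with 3 against 3 libraries cannot go below 0.1. Its p-values are not reported here, and the shares are given as descriptions. Some members are counted in sums and totals but not reported here singly or drawn.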

Additional observations from a re-analysis of the deposited data

How the results depend on the processing

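Under every alternative (scaling by median ratios, by total counts, on nuclear or on plastid genes, no or a strict low-count filter, DESeq2, limma voom, genes alone, the replicate block, and each library left out) 0 members were called higher and 0 lower. The median log2 fold change of the fitted members was 0.19 in the main fit. In the alternatives it ran from 0.04 with scaling on plastid genes to 0.35 with the strict filter, and from 0.10 to 0.41 with a library left out. The strict filter kept 30 members and left out rpl14, rpl16 and rpl24, all with estimates below 0 in the main fit, so its median is over another set. The members' median minus that of all fitted plastid genes was 0.02 in the main fit. It was below 0 without a low-count filter (-0.05) and without wild-type replicate 1 (-0.10), wild-type replicate 3 (-0.08) or mutant replicate 3 (-0.04). The mutant's share of all counts exceeded that of the wild type by 0.0051 percentage points, and by 0.0061 over nuclear counts and 0.0049 without rpl20; its share of plastid counts was higher by 0.25 points. Leaving out a library gave 0.0031 to 0.0077 and 0.14 to 0.44 points. Of 13 tested members followed singly through the settings, 5 changed sign under some setting, and the cause was not tested. Their main estimates were 0.19 for tsf, 0.13 for rpoA, 0.04 for rpoC, -0.03 for tufA and -0.0047 for rpl20. That of tsf was also the median of the tested members. With total counts alone tufA came to 0.032 and rpl20 to 0.040, with scaling on nuclear genes tufA came to 0.024 and rpl20 to 0.047, with scaling on plastid genes rpoA came to -0.017 and rpoC to -0.11, and with genes alone rpl20 came to 0.016. With a library left out rpoA ran from -0.077 to 0.28, rpoC from -0.22 to 0.48, tsf from -0.024 to 0.51, tufA from -0.19 to 0.22 and rpl20 from -0.28 to 0.25. Same-numbered libraries deviated together with correlations of 0.022, 0.13 and 0.26. Wild-type replicate 2 correlated slightly more with mutant replicate 1 (0.14) than with its own number. All other pairs of unlike number were below 0, from -0.26 to -0.0006. The numbers were not taken to pair the samples in the main fit, and the replicate block gives the paired alternative. With the replicate block the median was 0.21 and the lowest adjusted p of a member was 0.092 (edgeR), with 318 rows called in place of 378. The median member had under 50 counts in each library, and replicates differed by more than counting error.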
